A study of Mus musculus with 6 samples.

Results

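Cadherins and their relatives were compared between D6/Zbtb20S transgenic and wildtype mice in 46 genes of the 18193 measured. The genes were chosen by symbol: the numbered cadherins (Cdh), the numbered, non-clustered protocadherins (Pcdh), the flamingo cadherins Celsr1 to Celsr3, the giant cadherins Fat1 to Fat4, Dchs1, and the alpha- and delta-catenins, which bind cadherin tails inside the cell. The brightest probe set, by its mean on the 6 arrays, stood for each gene, and the other probe sets were checked. Cdh12 and Cdh24 were not analysed here.

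The arrays held RNA of the subiculum and the retrosplenial cortex, dissected together on postnatal day 1 from mice of C57BL/6 background. The 3 wildtype arrays came from littermates without the transgene, and the 3 D6/Zbtb20S arrays from transgenic mice, whose tissue is labelled as transformed towards CA1, a pyramidal field of the hippocampus. D6 is known as a forebrain enhancer of Dach1, and Zbtb20S as the short form of Zbtb20, a zinc finger repressor of hippocampal pyramidal neurons. Each array held RNA pooled from 7 animals, and the sources do not tell whether pools within a group share litters. The p-values therefore measure only how much these pools differ, which may be technical.

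Cadherins are calcium-dependent adhesion molecules whose extracellular repeats bind mostly to the same cadherin on a neighbouring cell. Type I cadherins such as N-cadherin (Cdh2) hold most cells of the neural tissue together, while type II cadherins and delta-protocadherins are expressed in patches, layers and nuclei of the developing brain and are known for sorting neurons and matching axons with their targets. The flamingo cadherins act in planar cell polarity and axon guidance, and the Fat and Dachsous cadherins in tissue polarity and growth control.

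Array medians lay between 3.83 and 3.97 on the log2 scale of the deposited values. Wildtype replicate 3 stood apart: on all 9 probe sets of Zbtb20 it was the highest wildtype array, by a median of 1.06 over the mean of the other wildtype arrays. On the Zbtb20 probe set that passed the threshold, 1422064_a_at, the values were 6.44, 5.84 and 7.64 in wildtype replicates 1, 2 and 3, and 8.88, 9.10 and 8.94 in transgenic tissue, so results resting on that wildtype array are given without it too. Of 9 pyramidal neuron markers 6 were measured, and none lay under the median on every array. Their summed linear signal was 2066 to 2338 in wildtype and 2609 to 3202 in transgenic tissue, with Neurod2 and Bcl11b higher and Tbr1 lower. Markers of other cell types moved as well. Microglial genes were higher in 4 of 12 cases (summed signal 629 to 667 in wildtype, 820 to 949 in transgenic tissue; Itgam under the median on every array), oligodendrocyte genes lower in 4 of 10 (1024 to 1220 against 751 to 847; Mog and Mag under the median) and GABAergic genes lower in 2 of 14 (1252 to 1337 against 1056 to 1141; Dlx6 and Erbb4 under the median). Endothelial and mural genes were lower in 1 of 14 (892 to 1077 against 830 to 1030; Pecam1 and Tie1 under the median) and radial glia and astrocyte genes in 1 of 14 (7265 to 7992 against 7465 to 7514). Of the CA3 and dentate gyrus genes 2 of 11 were lower, Cpne4 and Elavl2 (1363 to 1565 against 1100 to 1192, with Prox1, Dsp, Tdo2 and Iyd under the median). Elavl2 was the brightest of them (mean 9.53 against 9.05), and the list's median change was 0.07, with 7 positive and 4 negative. Of the thalamic and striatal genes 4 of 12 were higher, namely Foxp1, Lhx2, Penk and Ppp1r1b (863 to 968 against 1624 to 1739). Gbx2, Drd1, Drd2 and Isl1 lay under the median on every array. Foxp1 was the brightest of this list (mean 9.13 against 10.26) and weighs most in its sum. The list's median change was 0.07, with 9 positive and 3 negative. No gene of the meningeal (10 genes), choroid plexus (7 genes) or Cajal-Retzius (7 genes) lists passed in limma, with 1, 1 and 4 at an unadjusted p under 0.05. The meningeal sum ran from 1945 to 2346 in wildtype and from 1142 to 2466 in transgenic tissue, the choroid plexus sum from 96.3 to 150.3 and from 87.5 to 155 (5 of 7 genes under the median), and the Cajal-Retzius sum from 1231 to 1378 and from 1285 to 1384 (Lhx1 and Lhx5 under the median). The part of these cell types in the cadherin results was not tested, and in bulk tissue fewer cells of a type and less RNA per cell cannot be told apart.

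The cadherin group changed in both directions, with more genes lower than higher. In transgenic tissue 10 of the 46 genes fell and 5 rose at an adjusted p under 0.05 in limma, beside 7.71% of all genes in either direction (3.64% lower, 4.06% higher). The losses were the type II cadherins Cdh6, Cdh9 and Cdh7, the membrane-anchored Cdh13, the protocadherins Pcdh17, Pcdh11x, Pcdh15, Pcdh10 and Pcdh1, and the giant cadherin Fat1. The gains were Pcdh8, Pcdh19, Pcdh18, Cdh4 and Cdh11. At least 2-fold, 3 genes changed, all lower: Cdh6, Pcdh17 and Cdh9 (background 1.45% in either direction). The median change of the group was -0.06 on the log2 scale, against -0.02 over all genes, and the median size of the change regardless of sign was 0.17 against 0.10.

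Of the 15 genes, 8 passed whichever array was left out: Cdh6, Cdh7, Cdh9, Cdh13, Fat1, Pcdh10 and Pcdh17 among those that fell and Pcdh8 among those that rose. Without wildtype replicate 3, 15 genes passed too (8 lower, 7 higher), beside 8.45% of all genes measured. Of these 15, 13 were shared with the full set. The others, Cdh8 and Cdh10, counted as higher on the probe set that stands for the gene. For Cdh8 the other probe sets fell, and no direction is given for it below. The count of rises, 5 with all arrays, was 1 without wildtype replicate 2, 2 without wildtype replicate 1 or D6/Zbtb20S replicate 1, and 3 without D6/Zbtb20S replicate 2 or 3. Those 3 were Pcdh8 and Pcdh19 with Pcdh7 (without D6/Zbtb20S replicate 2) or Cdh10 (without D6/Zbtb20S replicate 3). Neither Pcdh7 nor Cdh10 passed with all arrays. In an ordinary linear model, which estimates each gene's spread from its own 6 arrays, 1 gene passed, Cdh6.

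**Figure D1:**
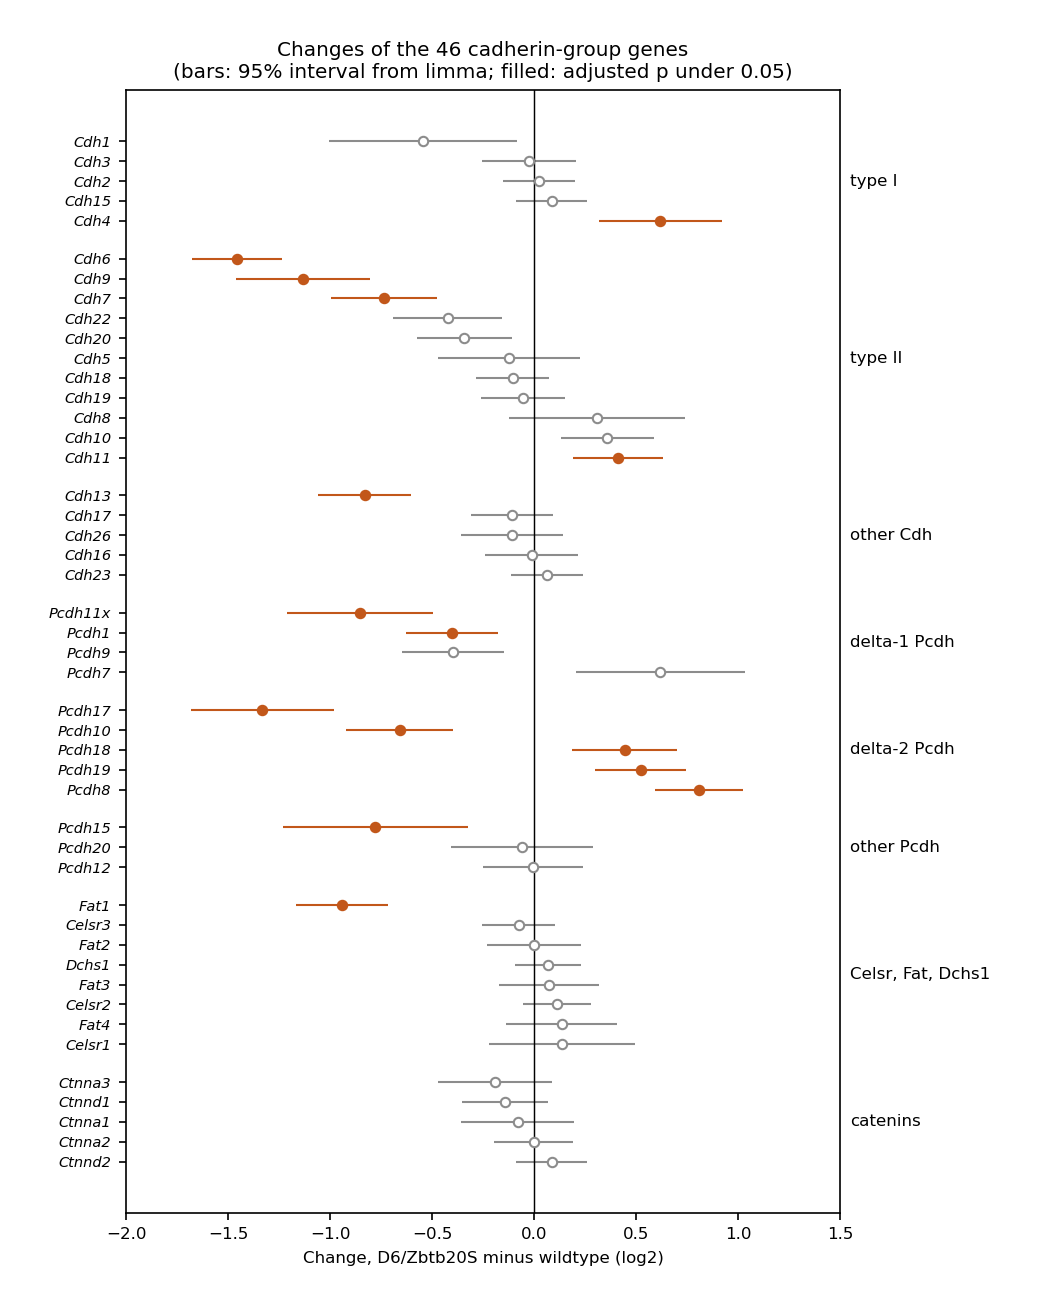
Changes of the 46 genes, grouped by subfamily, as D6/Zbtb20S minus wildtype on the log2 scale; points are limma estimates, bars their 95% intervals, and filled points passed an adjusted p of 0.05. The 10 filled points left of 0 run down to -1.46 (Cdh6) and the 5 right of it up to 0.81 (Pcdh8), while the 5 catenins cluster around 0.

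Among type I cadherins, whose binding is known to drive strong adhesion, 1 of 5 genes rose and 0 fell. Cdh4, or R-cadherin, read 6.03, 6.08 and 6.56 in wildtype replicates 1, 2 and 3, and 6.85, 6.92 and 6.76 in transgenic tissue. The groups did not overlap, and wildtype replicate 3 was the wildtype array closest to the transgenic ones. The change was 0.62 ± 0.13 (SE, n = 3 and 3 arrays; limma adjusted p = 0.0205), a 1.54-fold rise. It passed in 1 of 6 fits with an array left out, the one without wildtype replicate 3 (0.79, adjusted p = 0.000628; adjusted p up to 0.095 in the others). A second Cdh4 probe set, 1456397_at, rose by 0.46 ± 0.10 (adjusted p = 0.0404 over all probe sets), and the dim 1449637_at read 0.06 (adjusted p = 0.798).

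Cdh2, or N-cadherin, read 9.19, 9.27 and 9.35 in wildtype and 9.30, 9.32 and 9.26 in transgenic tissue. The groups overlapped, and the 95% interval of the change ran from -0.15 to 0.20. Cdh1, the epithelial E-cadherin, lay under the array median in both groups, at 3.30, 2.39 and 2.53 against 2.07, 2.18 and 2.34. Its arrays did not overlap, but the change of -0.55 ± 0.21 did not pass (adjusted p = 0.164). Cdh3 (P-cadherin) and Cdh15 (M-cadherin) did not pass either, with changes of -0.02 and 0.09.

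Type II cadherins held the largest fall of the group. Of 11 measured, 3 fell (Cdh6, Cdh9 and Cdh7), 1 rose (Cdh11) and 7 did not pass, and the median change was -0.12. Cdh6, a cadherin known for compartment boundaries in the embryonic forebrain, read 5.51, 5.30 and 5.60 in wildtype replicates 1 to 3 and 3.97, 3.95 and 4.12 in the transgenic ones. Every wildtype array lay well above every transgenic one, and the arrays of a group lay close together. The fall was 2.74-fold (-1.46 ± 0.10, limma adjusted p = 2.74e-05), and adjusted p stayed between 4.51e-05 and 0.000619 with any array left out. A second probe set, 1450288_at, lay under the array median and read -0.14 ± 0.08 (adjusted p = 0.403).

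Cdh9, a cadherin known for its role in specific hippocampal synapses, has 1 probe set and read 6.56, 6.97 and 6.86 in wildtype and 5.96, 5.56 and 5.46 in transgenic tissue. The lowest wildtype array lay above the highest transgenic one. The fall was 2.19-fold (-1.13 ± 0.15, adjusted p = 0.00121). Cdh7 was dim, under the array median in both groups, at 3.64, 3.49 and 3.46 against 2.69, 2.64 and 3.05. It fell by 0.73 ± 0.12 on the log2 scale (adjusted p = 0.00397). Its 2 other probe sets passed as well, with falls of 2.22-fold (1444736_at, adjusted p = 0.00336) and 2.17-fold (1460045_at, adjusted p = 0.0113).

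Cdh11, a mesenchymal and neural cadherin, went the other way, from 8.21, 8.29 and 8.52 to 8.79, 8.65 and 8.81. The groups did not overlap, and the rise was 1.33-fold (0.41 ± 0.10, adjusted p = 0.0325). It passed in the fit without wildtype replicate 3 (adjusted p = 0.010) and missed the threshold without any other array (up to 0.135). Adjusted over all probe sets, both Cdh11 probe sets narrowly missed the threshold, at adjusted p = 0.0544 and 0.0512.

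Cdh8 gave opposite answers on its probe sets. On 1422052_at, which has the highest mean and stands for the gene, the values were 5.58, 5.67 and 6.44 in wildtype and 6.24, 6.21 and 6.17 in transgenic tissue, so wildtype replicate 3 lay above all transgenic arrays and the other wildtype arrays below them. The change was 0.31 ± 0.19 (adjusted p = 0.421), and 0.58 without wildtype replicate 3 (adjusted p = 0.00317). On 1455365_at the values were 5.76, 6.03 and 6.15 in wildtype against 5.24, 5.14 and 4.85. This was a 1.87-fold fall (-0.90 ± 0.13, adjusted p = 0.00622 over all probe sets), and 1441690_at fell 1.74-fold (-0.80 ± 0.15, adjusted p = 0.0174). Neither of these sets overlapped between groups. The mean of the 3 probe sets was at -0.47 (adjusted p = 0.056), and no direction is given for Cdh8.

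**Figure D2:**
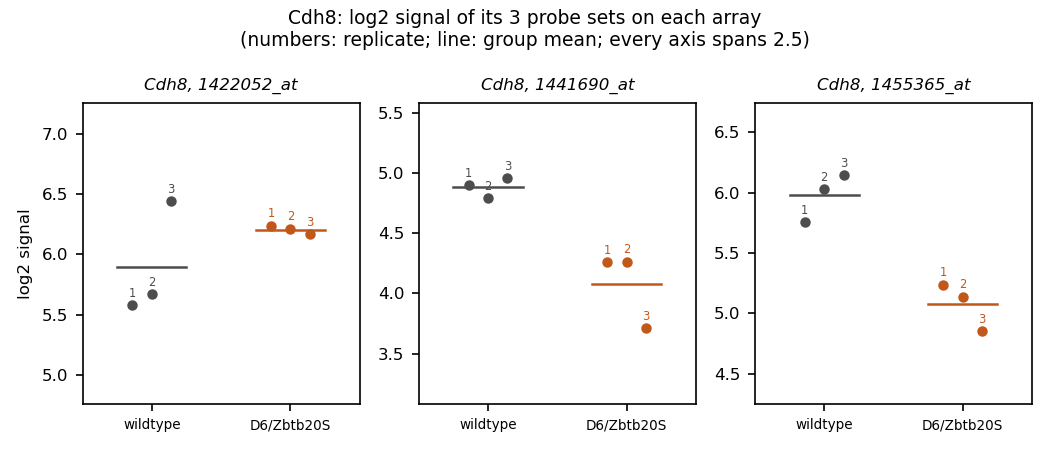
Log2 signal of the 3 Cdh8 probe sets on each array, wildtype in grey and D6/Zbtb20S in orange, with replicate numbers beside points and lines at group means; every vertical axis spans 2.5. On 1422052_at wildtype replicate 3 (6.44) sits above the transgenic arrays and replicates 1 and 2 below them, while on 1441690_at and 1455365_at all transgenic arrays sit below all wildtype arrays.

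Of the other type II cadherins, Cdh10 (7.31, 7.35 and 7.56 against 7.85, 7.84 and 7.61), Cdh22 (4.41, 4.61 and 4.41 against 4.28, 3.83 and 4.04) and Cdh20 (4.05, 4.07 and 3.88 against 3.84, 3.66 and 3.48) did not overlap between groups but missed the threshold, at adjusted p = 0.0633, 0.0643 and 0.0871. Their changes were 0.36, -0.42 and -0.34. Cdh10 passed without wildtype replicate 3 (adjusted p = 0.0315), without D6/Zbtb20S replicate 3 (0.0418) and with array weights (0.00733). Its other probe sets did not pass, at 0.46 (1446399_at), 0.09 (1460538_at) and -0.19 (1433302_at), the last with no overlap between groups. The mean of the Cdh10 sets was at 0.18 (adjusted p = 0.313). Cdh22 passed without D6/Zbtb20S replicate 1 (0.0344), with equal array medians (0.0401), with quantile normalization (0.0422) and with array weights (0.0132), and Cdh20 with array weights (0.0251). Cdh5, the endothelial VE-cadherin, was at -0.12 with overlapping groups (95% interval -0.47 to 0.22), and the dim Cdh18 and Cdh19 were at -0.11 and -0.05. Several type II genes are neighbours in the GRCm38.p6 gene table. Cdh6, Cdh9 and Cdh10 follow each other with 0 protein-coding genes between, and of these Cdh6 and Cdh9 fell while Cdh10 had a positive change that did not pass. Cdh7 and Cdh19 are likewise adjacent, as are Cdh8, Cdh11 and Cdh5.

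Cdh13, or T-cadherin, is attached to the membrane by a lipid anchor and lacks the tail that binds catenins. It was lower on each transgenic array, at 7.05, 6.82 and 6.67 in wildtype and 5.97, 6.04 and 6.04 in transgenic tissue, a fall of 0.83 ± 0.10 (adjusted p = 0.000872). A second bright probe set, 1423551_at, fell 2.09-fold (adjusted p = 0.000246 over all probe sets). Both remaining sets were dim, at -0.45 and -0.17, and did not pass. The other members of this class, Cdh16, Cdh17, Cdh23 and Cdh26, had changes from -0.11 to 0.06 and did not pass.

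Delta-1 protocadherins have an extracellular repeat more than delta-2 protocadherins, and both groups are known for expression in restricted sets of neurons. Among the 4 delta-1 genes 2 fell and 0 rose. Pcdh11x read 5.26, 5.75 and 5.84 in wildtype and 5.0, 4.58 and 4.70 in transgenic tissue. The groups did not overlap, though wildtype replicate 1 lay close to the highest transgenic array. The fall was 1.81-fold (-0.85 ± 0.16, adjusted p = 0.01). It missed the threshold without wildtype replicate 2 (adjusted p = 0.0511), and its other probe set passed, at -0.40 (adjusted p = 0.0387 over all probe sets). Pcdh1 lay under the array median on its probe set, at 3.11, 3.06 and 3.03 against 2.63, 2.5 and 2.86. It fell by 0.40 ± 0.10 on the log2 scale (adjusted p = 0.0392), and passed in 1 of 6 fits with an array left out (up to 0.14), not in the one without wildtype replicate 3 (0.058).

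The remaining delta-1 genes pointed in different directions and did not pass. Pcdh9 read 8.19, 8.51 and 8.35 against 8.02, 8.06 and 7.77 (-0.40 ± 0.11, adjusted p = 0.062). Pcdh7, dim in both groups, read 2.68, 3.27 and 3.29 against 3.97, 3.39 and 3.73 (0.62 ± 0.18, adjusted p = 0.0783). Neither overlapped between groups. Pcdh9 passed without wildtype replicate 1 (0.0444) and with array weights (0.0109), and Pcdh7 without D6/Zbtb20S replicate 2 (0.0488) and with equal array medians (0.0371). The other Pcdh9 probe sets read -0.03 (1442659_at) and -0.11 (1458269_at) and did not pass. The mean of the Pcdh9 sets was at -0.18 (adjusted p = 0.251). The other Pcdh7 sets had negative changes that did not pass, -0.01 (1427592_at) and -0.14 (1449249_at). The mean of the Pcdh7 sets was at 0.15 (adjusted p = 0.359).

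All 5 delta-2 protocadherins passed, 3 higher and 2 lower. Pcdh17, known for its place in corticostriatal and other circuits and for recruiting actin regulators to axons, read 7.93, 7.99 and 8.52 in wildtype and 7.01, 6.70 and 6.73 in transgenic tissue. Wildtype replicate 3 was the highest array, and the groups did not overlap. The fall was 2.52-fold (-1.33 ± 0.16, adjusted p = 0.000648). The second Pcdh17 probe set, 1436920_at, overlapped between groups, at 6.35, 5.63 and 7.78 against 6.16, 5.46 and 6.28, and did not pass (-0.62 ± 0.47, adjusted p = 0.567), nor did the mean of both (adjusted p = 0.0751).

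Pcdh8, or arcadlin, is known as an activity-induced protocadherin of hippocampal synapses. Its wildtype arrays lay close together at 9.28, 9.29 and 9.30, and the transgenic ones at 10.20, 10.20 and 9.90. The rise was 1.75-fold (0.81 ± 0.10, adjusted p = 0.000701), and its other probe set rose 1.83-fold (adjusted p = 0.00222 over all probe sets). Pcdh19, an X-linked gene mutated in a form of epilepsy, read 8.40, 8.43 and 8.71 against 9.0, 9.10 and 9.0. It rose 1.44-fold (0.52 ± 0.10, adjusted p = 0.0107), with adjusted p = 0.0594 without wildtype replicate 2. Its dimmer probe set 1444422_at gave a larger rise of 2.34-fold (3.86, 4.23 and 4.29 against 5.17, 5.30 and 5.58; adjusted p = 0.00207). Its other bright set, 1437360_at, read 0.52 ± 0.13 and narrowly missed the threshold (adjusted p = 0.0517 over all probe sets).

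Pcdh10, or OL-protocadherin, known in axon growth and synapse elimination, read 6.44, 6.86 and 6.85 against 6.12, 6.03 and 6.02. The groups were apart, and the fall was 1.58-fold (-0.66 ± 0.12, adjusted p = 0.00773). Its 5 other probe sets did not pass, and the mean of its probe sets was at -0.32 (adjusted p = 0.0939). Pcdh18 read 5.83, 5.95 and 6.09 against 6.30, 6.63 and 6.27 (0.44 ± 0.11, adjusted p = 0.0464). With an array left out it passed in 1 of 6 cases, without wildtype replicate 3 (adjusted p up to 0.147 in the others), and it missed the threshold with equal array medians (adjusted p = 0.0544) and with quantile normalization (0.0714).

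**Figure D3:**
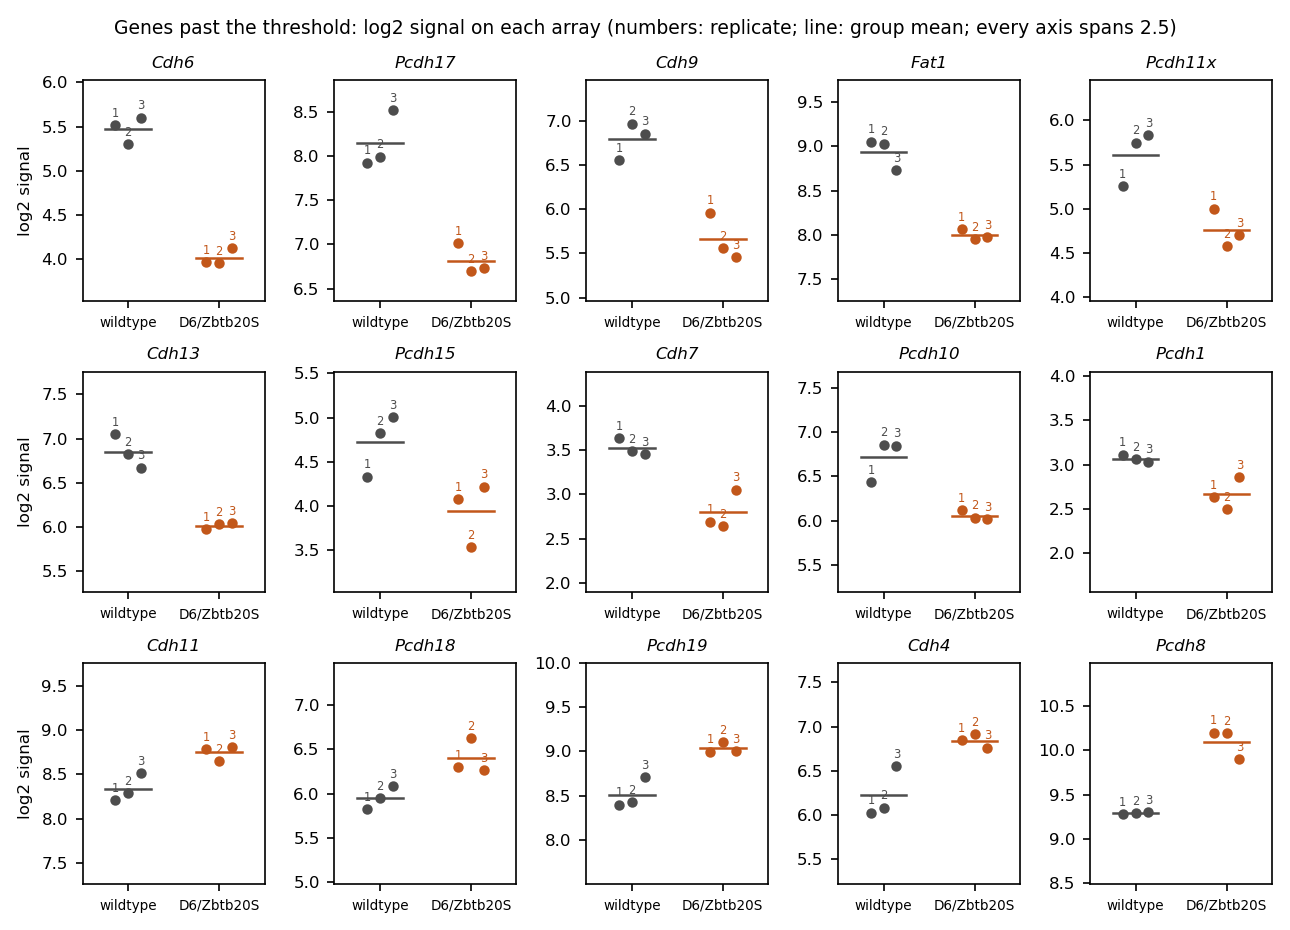
Log2 signal of the 15 genes past the threshold on each array, ordered from the largest fall to the largest rise, wildtype in grey and D6/Zbtb20S in orange, with replicate numbers beside points and lines at group means; every vertical axis spans 2.5. No gene overlaps between groups; among the rises wildtype replicate 3 is the wildtype array nearest the transgenic ones, as for Cdh4 at 6.56.

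Of the 5 delta-2 genes, 4 form pairs of opposite direction that are close in gene order, though megabases apart by the coordinates below. In the GRCm38.p6 gene table Pcdh8 and Pcdh17 have 1 protein-coding gene between them, as do Pcdh10 and Pcdh18; in each pair 1 gene rose and the other fell. Their sequences before the start of transcription are given for comparison, from RefSeq on GRCm38.p6, 5′ to 3′ on the gene's strand, with each CG dinucleotide in capitals. The Pcdh18 stretch is shorter because its listed start lies 67 bases inside the outermost start of the gene.
Pcdh17, chr14:84443313-84443562 (+ strand): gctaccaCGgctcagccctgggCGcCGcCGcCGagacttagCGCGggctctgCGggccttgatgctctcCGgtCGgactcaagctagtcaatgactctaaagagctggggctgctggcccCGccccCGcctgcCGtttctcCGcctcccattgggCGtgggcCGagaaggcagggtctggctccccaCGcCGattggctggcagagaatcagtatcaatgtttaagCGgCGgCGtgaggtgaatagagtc
Pcdh8, chr14:79771313-79771562 (- strand): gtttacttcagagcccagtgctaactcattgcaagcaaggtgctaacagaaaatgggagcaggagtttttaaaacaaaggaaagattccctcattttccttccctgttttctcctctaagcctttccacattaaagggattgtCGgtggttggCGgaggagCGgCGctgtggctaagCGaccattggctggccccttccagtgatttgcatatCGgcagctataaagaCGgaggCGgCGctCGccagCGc
Pcdh10, chr3:45378148-45378397 (+ strand): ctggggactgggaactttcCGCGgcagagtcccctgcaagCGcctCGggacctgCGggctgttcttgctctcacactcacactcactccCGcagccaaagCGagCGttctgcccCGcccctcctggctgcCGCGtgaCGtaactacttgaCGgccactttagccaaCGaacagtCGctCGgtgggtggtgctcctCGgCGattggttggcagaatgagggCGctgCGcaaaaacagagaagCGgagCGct
Pcdh18, chr3:49757384-49757566 (- strand): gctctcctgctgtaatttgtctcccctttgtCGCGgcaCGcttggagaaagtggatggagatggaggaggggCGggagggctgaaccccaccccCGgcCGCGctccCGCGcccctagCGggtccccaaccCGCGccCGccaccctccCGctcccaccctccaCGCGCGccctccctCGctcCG
In the 250 bases before the listed start, Pcdh17 had 21 CG dinucleotides, Pcdh10 22, Pcdh18 23 and Pcdh8 11, and the median over 32851 such windows was 6. Of all windows, 83.7% held fewer than Pcdh17, 85.2% fewer than Pcdh10, 86.7% fewer than Pcdh18 and 64.4% fewer than Pcdh8. Pcdh8 held TATAAA 30 bases before its start, a motif found on either strand in 12.4% of windows and in none of the other 3 stretches. CANNTG, the E-box, was in none of the 4 stretches and in 66.2% of windows, and CAGGTG or CACCTG, a subset of E-boxes, in none and in 17.2%. This was not a trait of the group. The window of Pcdh19, the fifth delta-2 gene, held 1 CANNTG. Among other genes that passed, Cdh6 held 1, Cdh9 3, Fat1 2 and Pcdh15 2, and the Cdh7 windows held 1, 0 and 2. Listed starts lay 365 bases inside the outermost start of the gene for Cdh9, and 2732 for Cdh6. For Fat1 they lay 17108 bases inside and for Pcdh15 725590. These windows are therefore not like the 4 stretches above. Genes that did not pass ranged from 0, as for Pcdh7, to 4 for Cdh10. Windows were given for 30 of the 46 genes and 10 of the 15 that passed.

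Other non-clustered protocadherins gave 1 fall among 3. Pcdh15, a hair cell tip-link protein that is also expressed in oligodendrocyte precursors, read 4.33, 4.83 and 5.01 against 4.08, 3.54 and 4.22. Wildtype replicate 1 and transgenic replicate 3 lay close together. The fall was 1.71-fold (-0.78 ± 0.20, adjusted p = 0.0474), and it passed in 1 of 6 fits with an array left out (up to 0.162), not in the one without wildtype replicate 3 (0.101). Its 2 other, dim probe sets overlapped between groups and did not pass (-0.06 and -0.45), and the mean of its probe sets was at -0.43 (adjusted p = 0.0706). Beside it, 4 of 10 oligodendrocyte markers were lower, namely Olig1, Olig2, Mbp and Cnp, and their part in this fall was not tested. Pdgfra (-0.29, adjusted p = 0.243), Cspg4 (0.02, 0.941) and Gpr17 (0.20, 0.581) of the same list did not pass. Over that list 8 changes were negative and 2 positive. Pcdh20 and the endothelial Pcdh12 overlapped between groups, at -0.06 and -0.01.

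Of the 8 flamingo, Fat and Dachsous genes, Fat1 fell and 7 did not pass. Fat1, a giant cadherin of radial glia and other progenitors, has 1 probe set and read 9.05, 9.03 and 8.73 in wildtype and 8.06, 7.95 and 7.98 in transgenic tissue. Wildtype replicate 3 was the lowest wildtype array but still well above the transgenic ones. The fall was 1.92-fold (-0.94 ± 0.10, adjusted p = 0.00038). Beside it, 1 of 14 radial glia and astrocyte markers was lower, Sox2 (-0.42 ± 0.11, adjusted p = 0.0422). Fat4, which pairs with Dchs1 across cell contacts, was at 0.14 (95% interval -0.14 to 0.41), Fat3 at 0.07 and Fat2 at 0.00. Dchs1 read 6.76, 6.76 and 6.73 against 6.81, 6.82 and 6.84; the arrays did not overlap, yet the change was only 0.07 ± 0.07 (adjusted p = 0.654). Celsr2 did not overlap either (7.95, 7.98 and 7.98 against 8.04, 8.07 and 8.15; 0.11, adjusted p = 0.454), and Celsr1 and Celsr3 were at 0.14 and -0.08. In all, the arrays of 23 of the 46 genes did not overlap between groups, beside 26.1% of all genes, and 8 of these 23 had not passed.

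On the brightest probe set of each gene, none of the 5 catenins passed in limma, and 0 had an unadjusted p under 0.05. Their other probe sets did not pass over all probe sets either. The lowest adjusted p among these was 0.197, for Ctnnd1 on 1422450_at (-0.29 ± 0.11). Groups did not overlap on 1437275_at of Ctnna1 (-0.17, dim) and 1456116_at of Ctnnd2 (-0.09). Alpha-catenins link cadherins to actin and delta-catenins, of which Ctnnd1 is p120, hold cadherins at the membrane. Ctnna2, the neuronal alpha-catenin, read 8.55, 8.38 and 8.63 against 8.50, 8.56 and 8.50, with a 95% interval of the change from -0.20 to 0.19. Ctnnd2, the neuronal delta-catenin, read 9.23, 9.33 and 9.25 against 9.30, 9.42 and 9.36, with an interval from -0.09 to 0.26. The intervals were -0.36 to 0.19 for Ctnna1 and -0.35 to 0.07 for Ctnnd1. The dim Ctnna3 had an interval from -0.47 to 0.09.

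The 46 genes have 94 probe sets, 28 genes having several. Of these, 20 probe sets passed when adjusted over all probe sets (14 lower, 6 higher), beside 5.52% of all probe sets on the arrays. These belonged to 12 genes, of which 11 were among the 15 above and the other was Cdh8. Cdh11, Pcdh1, Pcdh15 and Pcdh18 missed the threshold when all probe sets were counted.

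**Figure D4:**
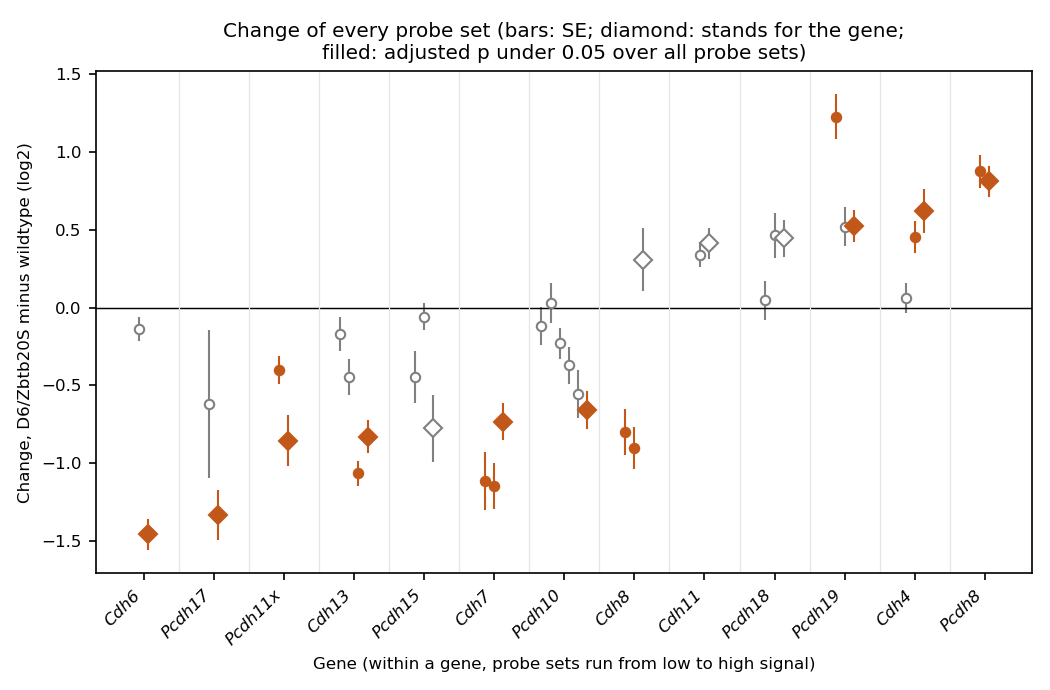
Change of every probe set, D6/Zbtb20S minus wildtype on the log2 scale with standard errors, for Cdh8 and the genes past the threshold that have several probe sets; diamonds stand for the gene, and filled symbols passed an adjusted p of 0.05 over all probe sets. For Cdh8 the diamond lies at 0.31 and both other sets at -0.80 and -0.90, while for Pcdh8 and Cdh7 all sets lie on the same side of 0.

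Genes that work with cadherins were followed in lists covering 75 measured genes, of which 5 rose (6.67%, beside 4.06% of all genes) and 4 fell (5.33%, beside 3.64%). Without wildtype replicate 3, 12 passed (7 higher, 5 lower). These were the same 9 with Vcl, or vinculin, which links alpha-catenin to actin (0.49, adjusted p = 0.106 with all arrays; 0.66 and 0.0115 without it), the sheddase gene Adam17 (0.32 and 0.195; 0.46 and 0.0329) and the calsyntenin gene Clstn3 (-0.28 and 0.143; -0.37 and 0.0483). In planar cell polarity, where Celsr proteins act, Prickle2 fell 2.76-fold and Prickle1 2.45-fold. Prickle2 read 7.64, 7.86 and 7.76 against 6.32, 6.21 and 6.35 (-1.46 ± 0.09, adjusted p = 1.31e-05). Prickle1, which like Prickle2 encodes a cytoplasmic component of that pathway, read 6.47, 6.49 and 6.21 against 5.11, 5.06 and 5.13 (-1.29 ± 0.09, adjusted p = 3.97e-05), and its 2 dim probe sets did not pass. Ankrd6, or Diversin, rose 1.84-fold, from 6.53, 6.17 and 6.75 to 7.41, 7.34 and 7.33 (0.88 ± 0.13, adjusted p = 0.00295). The other 9 of 12 genes of this list, among them Vangl2, Fzd3 and the Dvl genes, did not pass. Fzd3 (-0.31, adjusted p = 0.0781) passed with equal array medians (0.0414) and quantile normalization (0.0494), while the mean of its probe sets was at 0.03 (0.902).

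Among other cadherin superfamily genes 2 of 9 fell and 0 rose. Clstn2, a postsynaptic calsyntenin, read 8.77, 8.80 and 8.82 against 7.74, 7.63 and 7.64 (-1.13 ± 0.08, adjusted p = 2.62e-05), and its second probe set fell too (-0.95, adjusted p = 0.00845). Cdhr1, a photoreceptor cadherin, read 4.37, 4.24 and 4.64 against 3.84, 3.65 and 3.47, under the median in transgenic tissue (-0.77 ± 0.13, adjusted p = 0.00497). Among 15 genes of the adherens junction and its armadillo proteins 1 rose, Pkp4, a relative of p120, from 8.02, 8.06 and 8.25 to 8.77, 8.70 and 8.78 (0.64 ± 0.09, adjusted p = 0.0016), with a larger change of 1.40 on its other probe set (adjusted p = 0.00373). Ctnnb1, or beta-catenin, which joins cadherins to alpha-catenin, did not pass on its brightest probe set (0.27 ± 0.08, adjusted p = 0.0829). Its 2 other sets passed over all probe sets, at 0.66 (adjusted p = 0.00766) and 0.43 (0.0375), as did the mean of its sets (0.45, adjusted p = 0.00454) and its brightest set after quantile normalization (0.0316).

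Of 8 genes for cadherin cleavage, the matrix metalloproteinase genes Mmp2 and Mmp14 rose. Mmp2 read 5.31, 5.41 and 5.61 against 6.24, 6.40 and 6.40 (0.90 ± 0.10, adjusted p = 0.000436). Mmp14, the activator of pro-Mmp2, read 5.71, 5.83 and 6.32 against 6.47, 6.73 and 6.73 (0.69 ± 0.15, adjusted p = 0.0226), and missed the threshold in 4 of 6 fits with an array left out (up to 0.0999), passing without D6/Zbtb20S replicate 1 and without wildtype replicate 3 (adjusted p = 0.000895 in the latter). Its 2 other probe sets did not pass (0.33 and -0.09), and the mean of its sets was at 0.31 (adjusted p = 0.0718). Of 6 measured repressors known to act on E-cadherin, Zeb2 rose 2.51-fold, from 7.97, 7.94 and 8.25 to 9.37, 9.48 and 9.30 (1.33 ± 0.10, adjusted p = 5.13e-05), and all its 5 probe sets passed. E-cadherin itself (Cdh1) was dim and did not pass, as given above. In limma 0 of 6 desmosomal, 0 of 11 Fat and Dachsous pathway and 0 of 8 WAVE complex genes passed, with 0, 1 and 0 at an unadjusted p under 0.05. These counts rest on the brightest probe set of each gene. Over all lists, 8 genes that did not pass had another probe set that did: Ctnnb1, the desmosomal Dsc3, Ret, Fjx1, Lats2, Taok1, Abi2 and Ncstn. Signs were opposite for Fjx1 (-0.12 on the set used, 0.50 on the set that passed) and Ncstn (-0.07 and 0.38), so no direction is given for them. Both sets were positive for Lats2 (0.44 and 0.58), Taok1 (0.25 and 1.01) and Abi2 (0.002 and 0.42), but each of these genes also had negative sets that did not pass. The dim Dsc3 read -0.17 on the set used and -1.15 on the other (adjusted p = 0.00246), with a mean of both at -0.66 (adjusted p = 0.00341). Ret, a receptor with cadherin-like repeats, read -0.26 and -0.88 (adjusted p = 0.00497 for the latter), with a mean at -0.57 (0.0033).

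**Figure D5:**
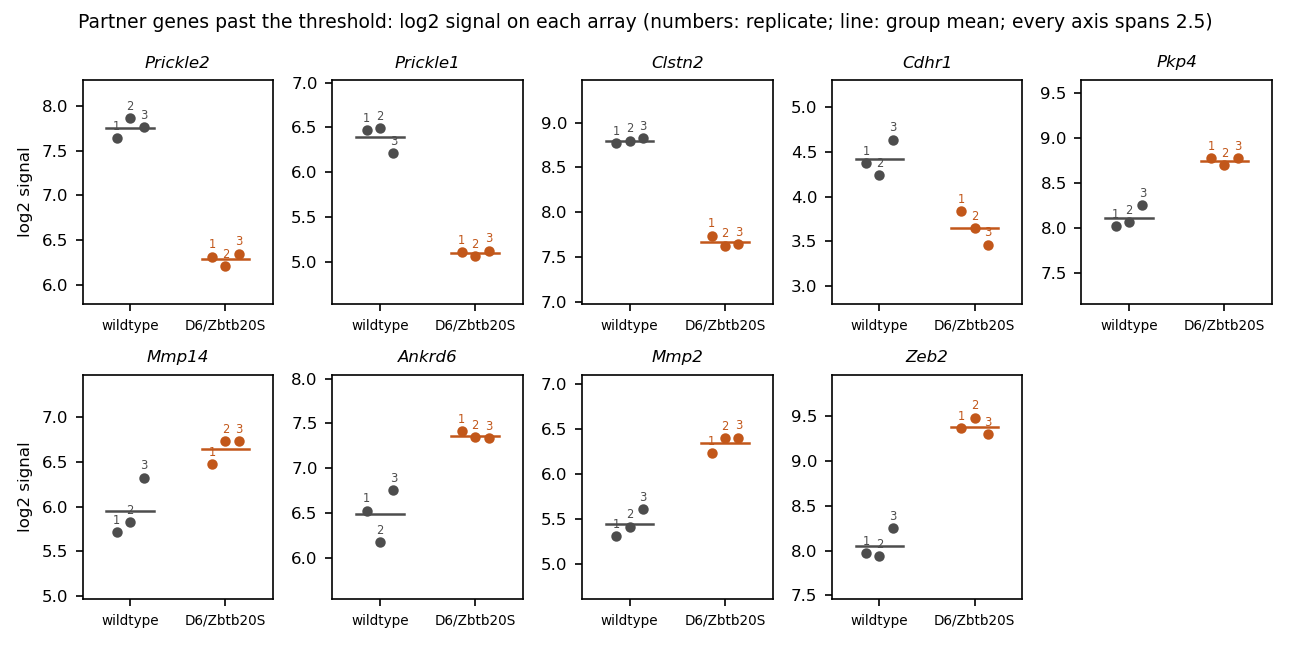
Log2 signal of the 9 partner genes past the threshold on each array, wildtype in grey and D6/Zbtb20S in orange, with replicate numbers beside points and lines at group means; every vertical axis spans 2.5. Prickle2, Prickle1, Clstn2 and Cdhr1 are lower on every transgenic array and Pkp4, Mmp14, Ankrd6, Mmp2 and Zeb2 higher, with no overlap between groups.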

How the data were processed

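The values deposited by the authors are on a log2 scale, with a row for each probe set and a column for each array. The submitters' processing notes name RMA and limma with no version, build or order; any later centring is not given in the sources used here. The log2 scale was taken from the range of the values. RMA compresses changes of dim probe sets, so their folds may be too small. Control probe sets (64 of 45101) were left out. Of the remaining 45037 probe sets, 34945 had 1 gene symbol in the platform annotation, and 18193 genes were tested on the probe set with the highest mean.

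The groups were compared by limma 3.58.1 under R 4.3.3, using lmFit and eBayes on these values as they stand; p-values were adjusted by the Benjamini-Hochberg method across the 18193 genes, with a threshold of 0.05. Other probe sets of a gene carry values from the same fit over all probe sets. Changes are D6/Zbtb20S minus wildtype, ± is the moderated standard error, and under the median means below the median of the arrays. The fit was tested on simulated data.

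The members and lists were chosen with earlier results of these data known. All members could be named, with values on every array for those past the threshold or with arrays that did not overlap, and list genes where they passed. The Cdh8, catenin and Cdh2 values, and those of list genes that did not pass, were chosen for display after they were seen. The number of arrays limits the precision.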

Additional observations from a re-analysis of the deposited data

How the results depend on the processing

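The settings tried were an ordinary linear model, array weights, a trend of the spread with intensity, arrays scaled to equal medians or by quantiles, a block for the replicate number, 1 array left out at a time, bright probe sets alone, averaged probe sets, no suffixed probe sets (_s_at, _x_at, _a_at) and thresholds of 0.01 and 0.1. The count over all genes (1402) was 2707 with array weights, 267 with the ordinary linear model and 693 at a threshold of 0.01, and 777 to 1538 with an array left out (777 without wildtype replicate 2, 837 without D6/Zbtb20S replicate 1). The 5 rises became 0 with the ordinary linear model in limma's place (8 at an unadjusted p under 0.05), 1 at a threshold of 0.01, and 1 to 7 with an array left out. The 10 falls became 1 with the ordinary linear model (12 at an unadjusted p under 0.05) and 7 to 10 with an array left out. Counts with an array left out include genes that did not pass with all arrays, such as Pcdh9 among the falls without wildtype replicate 1. No gene past the threshold changed sign under any of these settings. With the replicate block 1343 genes passed, 5 cadherin genes higher and 9 lower, Pcdh1 losing its call (adjusted p = 0.0534); same-numbered arrays did not deviate together (r of -0.215, 0.175 and -0.008 for numbers 1, 2 and 3), and only the arrays numbered 2 correlated best with their own number, so the numbers were not taken as pairs.

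Among genes that had not passed, the sign turned for Cdh8 (-0.47), Cdh3 (0.0012) and Ctnnd2 (-0.0025) as the mean of probe sets, for Ctnna1 (0.053) with suffixed probe sets left out, for Ctnna2 (0.087), Fat2 (-0.022) and Pcdh12 (0.011) with array weights, and for Fat2 with equal medians (-0.015) and quantile normalization (-0.022). With an array left out, changes of both signs were seen for Cdh16 (-0.11 to 0.067), Cdh19 (-0.10 to 0.031), Cdh2 (-0.014 to 0.064), Cdh26 (-0.20 to 0.0061), Cdh3 (-0.092 to 0.070), Cdh5 (-0.25 to 0.028), Celsr1 (-0.049 to 0.25), Ctnna1 (-0.19 to 0.047), Ctnna2 (-0.073 to 0.053), Fat2 (-0.068 to 0.083), Fat3 (-0.042 to 0.15), Pcdh12 (-0.084 to 0.11) and Pcdh20 (-0.21 to 0.076). The causes were not tested. Signal near the floor limits what can be seen for the 13 members under the array median in both groups, of which Cdh7 and Pcdh1 passed.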

Other observations

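The clustered protocadherins, which neurons combine to tell their own branches from those of others, were outside the rule, and were counted after the values of the cadherin group were seen. Of 23 clustered genes with a probe set of their own, 22 of the Pcdhb group and Pcdhgc4, 6 were higher in transgenic tissue and 0 lower in limma (8 higher and 0 lower at an unadjusted p under 0.05), beside 4.06% of all genes higher. The 6 were Pcdhb7, Pcdhb9, Pcdhb3, Pcdhb12, Pcdhb16 and Pcdhb21. Pcdhb9 read 6.55, 6.44 and 6.51 in wildtype replicates 1 to 3 and 7.15, 7.12 and 7.05 in the transgenic ones (0.61 ± 0.08, adjusted p = 0.00107), and Pcdhb7 5.74, 5.84 and 6.02 against 6.5, 6.39 and 6.55 (0.61 ± 0.09, adjusted p = 0.00329). The arrays of these genes did not overlap between groups. The number of rises was 2 to 7 with an array left out, 2 without D6/Zbtb20S replicate 1 or 3 and 3 without wildtype replicate 1 or 2, and 1 with the ordinary linear model.

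All 6 probe sets shared by the Pcdha genes, which name no single gene, had positive changes, and 1 passed. This was 1451769_s_at, at 5.08, 5.59 and 6.21 in wildtype and 6.59, 6.97 and 7.06 in transgenic tissue (1.25 ± 0.26, adjusted p = 0.0266 over all probe sets). The brightest, 1420798_s_at, read 9.94, 10.12 and 10.16 against 10.17, 10.16 and 10.12 and did not pass (0.08 ± 0.09, adjusted p = 0.714). The 6 sets may read the same genes, so they are not separate observations. Members of these clusters are close in sequence, so a probe set may read more than 1 of them.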
